A study of Oryza sativa and Arabidopsis thaliana with 16 samples.

Results

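The response of rice (Oryza sativa) to added nitrogen was examined as the average of its root and shoot changes, over the 8 rice arrays of a series of 16. These comprised 4 nitrogen arrays and 4 control arrays, with 2 arrays in each of 4 groups: root control, root nitrogen, shoot control and shoot nitrogen. All were taken because their labels name rice, and tissue was kept as a factor, so that each nitrogen array was set against controls of its own tissue. The series as a whole asks which nitrogen-regulated genes rice and Arabidopsis have in common, and the Arabidopsis arrays, of another array type, were not used here.

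Every group was of wild-type seedlings, 13 days old, whose cultivar is not given in the sources used here. They grew in liquid medium at 27 °C and 180 µE of light, with 0.5 mM ammonium succinate as the nitrogen source and 3 mM sucrose, so the controls were not free of nitrogen. Treated plants received 20 mM KNO3 and 20 mM NH4NO3 for 2 h, and control plants received 20 mM KCl for the same time. Potassium was thus matched by design, while nitrate, ammonium, chloride and the amount of salt all differed, and their effects cannot be told apart. The labels call the 2 arrays of each group biological replicates. The protocols in the labels speak of whole seedlings and plants, while the title and tissue label of each sample name root or shoot.

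The tissue labels were therefore set against marker genes. Of 14 genes of photosynthetic tissue, 11 had a higher log2 signal in the shoot controls than in the root controls, and of 16 root markers 14 were higher in the root controls. The rubisco small subunit RBCS had mean log2 signals of 14.49 in shoot controls and 10.15 in root controls, and the silicon efflux transporter gene Lsi2 had 11.76 in root controls and 5.40 in shoot controls. Neither marker list held a gene called between nitrogen and control. Their median average changes were -0.11 for the photosynthetic genes and -0.02 for the root genes, and -0.24 and -0.13 in root alone. In such bulk samples, fewer cells of a type and less RNA per cell cannot be told apart.

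Nitrate that enters a plant cell is reduced to nitrite by nitrate reductase, then to ammonium by nitrite reductase in plastids, and ammonium is built into glutamine by glutamine synthetase. Nitrite reduction draws electrons from ferredoxin, which in roots is reduced with NADPH from the oxidative pentose phosphate pathway. Non-symbiotic hemoglobins bind oxygen tightly and turn nitric oxide, a by-product of nitrite, back into nitrate. Genes for these steps are among the classical early nitrate-responsive genes of plants.

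On average over the tissues, 76 of 57258 probe sets (0.133%) were called at an adjusted p under 0.05 in limma, of which 66 were higher (0.115%) and 10 lower (0.0175%) after nitrogen. The genes that moved the same way in both tissues included both named hemoglobins, nitrate reductase NIA1, ferredoxin-NADP reductase FNR, the pentose phosphate pathway enzyme G6PGH2, the ascorbate-recycling enzyme MDAR5, the laccase LAC19 and the calmodulin-like protein CML16. The root contrast of the same 8-array model had 140 called probe sets (0.245%), 104 higher (0.182%) and 36 lower (0.0629%). The shoot contrast had 25 (0.0437%), all higher. By these contrasts, 20 probe sets (0.0349%) of 19 genes were called in root and again in shoot, and all 20 were higher in both.

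A signed change is given throughout as nitrogen minus control on the log2 scale with its standard error, so that a value of 1 is a doubling. Of the 76 probe sets, 75 had the same sign in root and shoot, against 54.1% of all probe sets tested. In 71 of them the nitrogen arrays lay wholly above, or wholly below, the control arrays in both tissues. Over all probe sets that held for 9.31% (4.89% higher and 4.43% lower). Since the same arrays chose the 76, these shares describe the calls and do not test them. Of the 66 higher probe sets, 28 were called in root but not in shoot, 4 in shoot but not in root, and 14 in neither tissue alone. The median change of these 66 was 1.25 in root and 0.95 in shoot.

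**Figure D1:**
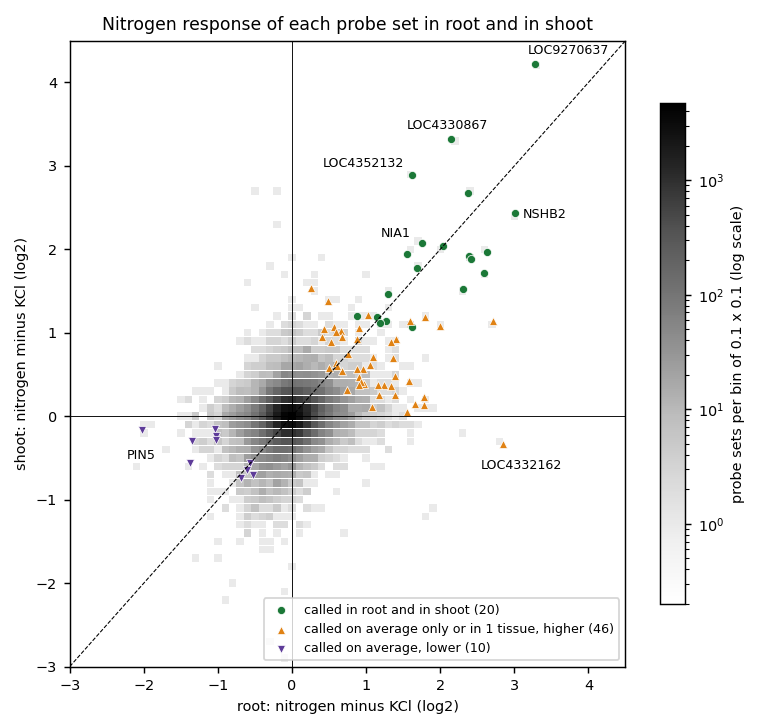
Change of each probe set after nitrogen in root (x axis) and in shoot (y axis), both as nitrogen minus KCl on the log2 scale; grey squares count all 57258 probe sets, coloured symbols are the 76 called on average, and the dashed line marks equal change. The 20 probe sets called in both tissues (green circles) lie in the upper right, LOC9270637 farthest out at 3.28 in root and 4.22 in shoot, while LOC4332162 rose in root and lies below 0 in shoot.

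The arrays of each tissue can also be fitted alone. The labels do not say that root and shoot came from different plants, so the tissues are not known to be independent. Differences between same-numbered replicates correlated at 0.028 to 0.272 between root and shoot groups. When the model was fitted to the 4 root arrays alone, 20 probe sets were called, 19 of them higher. In the shoot arrays, which that fit did not use, all 20 had the same sign and 17 had nitrogen arrays wholly beyond the controls in the same direction, against 18.7% of all probe sets for higher and 15.7% for lower values in shoot. Their median shoot change, taken in the direction of the root change, was 1.62. The 4 shoot arrays alone gave 3 called probe sets, all higher, and all 3 had root nitrogen arrays wholly above the root controls, with a median root change of 3.01.

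Larger sets were ranked by the size of the change in 1 tissue, not by p, and had smaller median changes in the other tissue. Such a ranking favours noise in the arrays it uses. The smaller medians are thus partly fixed by the choice and do not measure how far the tissues share the response. Of the 100 probe sets with the highest root changes (median 1.42), 75 were higher in shoot too, against 51.5% of all probe sets. In 52 the shoot arrays were wholly apart in that direction (18.7% of all), and the median shoot change was 0.28. The 100 lowest root changes (median -1.10) had a median shoot change of -0.16. Among these, 80 were lower in shoot (48.5% of all), and 36 had shoot arrays wholly below the controls (15.7%). Starting from shoot, the 100 highest changes (median 1.15) had a median root change of 0.45. Among them, 81 were higher in root (45.2% of all), and 59 had root arrays wholly above the controls (18.1%). The 100 lowest shoot changes (median -1.17) had a median root change of -0.37, with 86 lower in root (54.8% of all). In 59 of these the root arrays lay wholly below the controls (23.1%). Across all probe sets the root and shoot changes correlated at r = 0.255. That is a description over 57258 probe sets, which share the 8 arrays and are not independent.

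NIA1 encodes a nitrate reductase, the enzyme of the first reduction step. Its log2 signal was 8.62 and 8.41 in the root controls, 9.92 and 10.61 in root nitrogen, 9.98 and 10.47 in the shoot controls and 12.35 and 12.24 in shoot nitrogen. The nitrogen arrays were higher in both tissues with no overlap, and the 2 root nitrogen arrays lay further apart than the root controls did. The average change was 1.91 ± 0.17 (adjusted p = 0.00556), made up of 1.75 ± 0.23 in root and 2.07 ± 0.23 in shoot. A second NIA1 probe set, with signals from 5.35 to 5.75 on all 8 arrays, had an average change of -0.05.

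Only 4 genes of nitrate uptake and reduction could be named, and none but NIA1 was called. No nitrite reductase or NPF transporter gene was matched by name, so their response is not given here. NRT2.2 and NRT2.3 are high-affinity nitrate transporters and NAR2.2 is their partner protein. NRT2.2 had an average change of 0.30 ± 0.09 (adjusted p = 0.264), with 0.32 in root and 0.28 in shoot. NAR2.2 had an average of 0.00 ± 0.09. NRT2.3 had -0.76 in root and 0.21 in shoot, which averaged to -0.27 ± 0.16 (adjusted p = 0.626).

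FNR (LOC4334338) encodes a ferredoxin-NADP reductase, which passes electrons between NADPH and ferredoxin. Signals were 11.02 and 11.10 in root controls against 12.49 and 12.73 in root nitrogen, and 8.79 and 8.34 in shoot controls against 10.65 and 10.39 in shoot nitrogen. Both nitrogen arrays were above both controls in each tissue. The average change was 1.75 ± 0.12 (adjusted p = 0.00123), with 1.55 ± 0.17 in root and 1.95 ± 0.17 in shoot. The other reductase genes did not pass: LOC4342399, also named FNR, had 0.18 ± 0.08 (adjusted p = 0.483), and LFNR1, a leaf-type reductase, had -0.04 ± 0.31.

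G6PGH2 encodes 6-phosphogluconate dehydrogenase, which makes NADPH in the oxidative pentose phosphate pathway. Its arrays read 10.22 and 10.09 in root controls, 11.80 and 11.88 in root nitrogen, 8.80 and 8.41 in shoot controls, and 10.57 and 10.21 in shoot nitrogen. The rise was nearly equal in the tissues, 1.69 ± 0.16 in root and 1.78 ± 0.16 in shoot, and its average was 1.74 ± 0.11 (adjusted p = 0.00111). A dimmer G6PGH2 probe set had an average of 0.88 and was not called. Its changes were less equal, 1.41 in root and 0.34 in shoot. The related gene G6PGH1 had -0.08 ± 0.13 and was not called either. Among the 5 measured genes of NADPH supply and ferredoxin reduction, FNR (LOC4334338) and G6PGH2 rose and 3 were not called, with a list median of 0.18. For comparison, 0.302% of the 17905 genes were called, at 1 probe set each, with a median of 0.013. Among the 2455 genes with a name the share was 0.448% and the median 0.0. These shares are the background for the later lists too.

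Glutamine synthetase GLN2, the plastid form, was called by 1 of its 2 probe sets. That probe set read 5.39 and 5.70 in root controls, 6.53 and 6.74 in root nitrogen, 8.79 and 8.85 in shoot controls and 9.55 and 9.52 in shoot nitrogen. Its groups did not overlap in either tissue, and its average was 0.90 ± 0.09 (adjusted p = 0.0144). The brighter GLN2 probe set had 0.48 ± 0.12 (adjusted p = 0.192), with 0.73 in root and 0.22 in shoot. By their brightest probe sets, 0 of 17 genes of ammonium uptake and assimilation were called in limma (median 0.04). The highest of them was glutamate dehydrogenase GDH2 at 0.57 ± 0.24 and the lowest the ammonium transporter AMT2-2 at -0.42 ± 0.18. GDH2 had 1.21 in root and -0.07 in shoot, and AMT2-2 had -0.58 and -0.26. NADP-ME2, the only gene of organic acid supply that could be named, had -0.23 ± 0.08 (adjusted p = 0.349).

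The hemoglobin NSHB2 had the largest average rise of any named gene. NSHB2 read 7.85 and 8.13 in root controls and 11.08 and 10.92 in root nitrogen, and 7.13 and 6.93 in shoot controls and 9.34 and 9.58 in shoot nitrogen. The gap between treated and control arrays was many times the gap within groups in both tissues. Its average change was 2.72 ± 0.10 (adjusted p = 4.57e-05), a 6.58-fold rise, with 3.01 ± 0.14 in root and 2.43 ± 0.14 in shoot.

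NSHB1 read 9.64 and 9.35 in root controls, 12.10 and 11.66 in root nitrogen, 6.84 and 6.83 in shoot controls, and 8.70 and 8.82 in shoot nitrogen. It was higher after nitrogen on all 4 treated arrays than on the controls of the same tissue. NSHB1 rose by 2.15 ± 0.11 on average (adjusted p = 0.000423), with 2.39 in root and 1.92 in shoot. Its other probe sets, whose names mark probes shared with other transcripts, gave averages of 1.92 and 1.91, and both averages were called. They had 2.71 and 2.31 in root and 1.14 and 1.52 in shoot. The first of them was not called in shoot (adjusted p = 0.118 in limma). These 2 genes were all the hemoglobins the annotation named.

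MDAR5 encodes a monodehydroascorbate reductase, which returns oxidised ascorbate to its reduced form. Signals were 11.19 and 11.01 in root controls, 12.43 and 12.31 in root nitrogen, 9.84 and 9.75 in shoot controls, and 11.00 and 10.86 in shoot nitrogen. The tissues moved by similar amounts, 1.27 ± 0.11 in root and 1.14 ± 0.11 in shoot, for an average of 1.20 ± 0.08 (adjusted p = 0.00111). It was the 1 gene called of 12 for ascorbate and peroxide detoxification (median 0.11). The ascorbate peroxidase APX7 had a similar average, 1.05, with a larger error of 0.23, and did not pass (adjusted p = 0.143). Of 18 glutaredoxins, small redox proteins several of which respond to nitrate in Arabidopsis, none was called on average (median 0.14), while GRXS9 was called in root at 0.78 (adjusted p = 0.0270). The highest of them, GRXC10, had 0.95 ± 0.17 (adjusted p = 0.0937), with 0.28 in root and 1.62 in shoot.

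**Figure D2:**
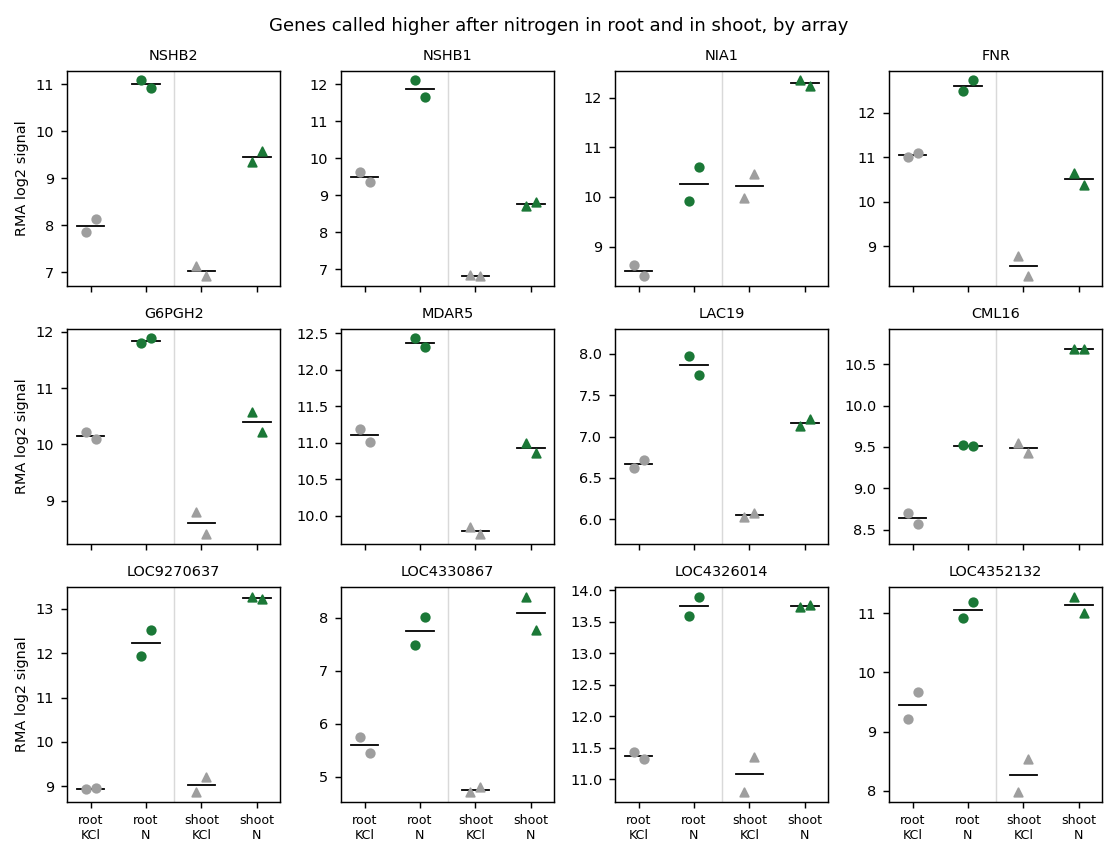
RMA log2 signal on each array (points) with the group mean (line) for 12 genes called higher after nitrogen in root (circles) and in shoot (triangles); grey is KCl, green is nitrogen, and each panel has its own axis range. In every panel the 2 nitrogen arrays lie above the 2 control arrays of the same tissue, as for NSHB2 with 7.85 and 8.13 against 11.08 and 10.92 in root.

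Among signalling genes, CML16, a calmodulin-like calcium sensor, rose in both tissues. It read 8.70 and 8.57 in root controls, 9.52 and 9.51 in root nitrogen, 9.55 and 9.43 in shoot controls, and 10.69 and 10.68 in shoot nitrogen. The treated replicates were nearly identical, and the average change was 1.04 ± 0.07 (adjusted p = 0.00122), with 0.88 in root and 1.20 in shoot. CML16 was the only one of 26 calmodulin-like genes called on average (median 0.03). CML10 was at -0.70 ± 0.11 (adjusted p = 0.0655), while its change of -1.22 in root was called there (adjusted p = 0.0267).

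CIPK kinases are calcium-dependent partners of CBL sensors, and some of them act on nitrate transport in Arabidopsis. CIPK14 read 10.50 and 10.64 in root controls, 11.99 and 12.32 in root nitrogen, 11.79 and 12.08 in shoot controls, and 12.25 and 12.45 in shoot nitrogen. The root groups were far apart and the shoot groups only just so, with changes of 1.58 ± 0.15 and 0.42 ± 0.15. Its average was 1.00 ± 0.11 (adjusted p = 0.0175). CIPK10 was called by 1 of 4 probe sets, at 1.37 ± 0.17 (adjusted p = 0.0356), with 1.59 in root and 1.14 in shoot. The other averages were 0.61, 0.81 and 1.07. These joined root changes of 1.35, 1.48 and 1.75 to shoot changes of -0.13, 0.14 and 0.39, so the shoot rise rests on the called probe set. The shoot controls of the called probe set, 4.60 and 4.38, also lay below the lower quartile of every array. Of 31 CIPK and CBL genes, CIPK14 alone was called by its brightest probe set (median 0.08).

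No gene was called on average among 21 nitrogen-linked regulators, a list of transcription factors and a few other proteins matched by name, with TGA-type factors its largest family. Their median was 0.10, and 17 were above 0, against 9546 of all 17905 genes at 1 probe set each. TGAL5 had the largest value, 0.92 ± 0.17 (adjusted p = 0.105), with 1.51 in root and 0.33 in shoot. NIGT1, a nitrate-inducible repressor, had 0.41 ± 0.08 (adjusted p = 0.104), with 0.29 in root and 0.53 in shoot. The nitrate-response activators NLP1 and NLP2, which act largely through their location in the cell, had -0.09 and 0.00.

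LAC19 encodes a laccase, one of a family of copper oxidases of the cell wall. Its values were 6.62 and 6.72 in root controls, 7.98 and 7.75 in root nitrogen, 6.03 and 6.08 in shoot controls, and 7.13 and 7.21 in shoot nitrogen. The groups were well separated in each tissue, and the average was 1.16 ± 0.08 (adjusted p = 0.00123), with 1.19 in root and 1.12 in shoot. The other 10 members of the peroxidase and laccase list were not called, and the list median was -0.18. LAC10 and PRX112, for example, had -1.02 ± 0.38 and -0.81 ± 0.17 (adjusted p = 0.390 and 0.134). LAC10 had -1.97 in root and -0.08 in shoot, and PRX112 had -0.83 and -0.79.

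Of the 19 genes called in both tissues, 11 carry only a gene number in the annotation, and no role is given for them here. LOC9270637 had the largest change of all, and its signals were 8.94 and 8.95 in root controls, 11.93 and 12.52 in root nitrogen, 8.87 and 9.20 in shoot controls, and 13.28 and 13.23 in shoot nitrogen. The control levels of the tissues were nearly equal, and the rise was 3.28 ± 0.19 in root and 4.22 ± 0.19 in shoot. Its average was 3.75 ± 0.13 (adjusted p = 4.57e-05), or 13.5-fold.

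LOC4330867 was low in all controls, at 5.75, 5.45, 4.71 and 4.80 for root and then shoot, and read 7.48 and 8.02 in root nitrogen and 8.40 and 7.76 in shoot nitrogen. Shoot controls were the lowest arrays and shoot nitrogen arrays lay within or above the range of root nitrogen. The average was 2.74 ± 0.17 (adjusted p = 0.000783), with 2.15 in root and 3.32 in shoot. Its shoot controls lay below the lower quartile of every array (4.871 to 4.935), and with no detection call in the data, whether they were above background was not tested. LOC4326014 read 11.43 and 11.32 in root controls, 13.59 and 13.90 in root nitrogen, 10.80 and 11.36 in shoot controls, and 13.74 and 13.76 in shoot nitrogen. Its treated arrays had close to the same signal in both tissues, and its average was 2.52 ± 0.13 (adjusted p = 0.000389).

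LOC4352132 had the largest lead of shoot over root among the genes called in both, 2.89 against 1.62. Its arrays read 9.21 and 9.67 in root controls, 10.92 and 11.19 in root nitrogen, 7.98 and 8.54 in shoot controls, and 11.28 and 11.01 in shoot nitrogen. Controls differed between the tissues while treated arrays overlapped. LOC4333430 went the other way, 2.59 in root and 1.72 in shoot. LOC4326671 had the same change, 2.04, in each. The remaining 5 gene numbers called in both were LOC4333744, LOC4337318, LOC4337306, LOC4342988 and LOC4337168, with averages of 2.30, 2.15, 1.38, 1.35 and 1.16.

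Genes called on average but not in both tissues were mostly larger in root. Among them LOC4338976 averaged 1.54 ± 0.14 (2.00 in root and 1.08 in shoot) and LOC4338930 averaged 1.11 ± 0.08 (1.33 and 0.89). LOC4324350 and LOC4347411 averaged 1.16 and 1.11. The higher calls also held 10 probe sets with no gene in the annotation. The largest of these averaged 1.49 ± 0.11 and was higher in both tissues (1.79 and 1.19), while the next, at 0.96 ± 0.10, had 1.78 in root and 0.14 in shoot.

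An average call does not mean an equal response in both tissues. GER3, a germin-like protein of the cell wall, read 8.56 and 8.73 in root controls, 10.22 and 10.17 in root nitrogen, 7.21 and 7.49 in shoot controls, and 7.22 and 7.58 in shoot nitrogen. The shoot groups overlapped, and the average of 0.80 ± 0.11 (adjusted p = 0.0472) joined 1.55 in root to 0.05 in shoot. LOC4325684 likewise had 1.78 in root and 0.23 in shoot. LOC4332162, which in the RefSeq gene order is separated from NSHB1 by 6 protein-coding genes, had 2.85 in root and -0.33 in shoot and was the 1 called probe set with opposite signs. Its shoot change, with a standard error of 0.21, was not called (adjusted p = 0.933 in limma).

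Whether the response differed between root and shoot was tested directly as an interaction. No probe set was called in limma (smallest adjusted p = 0.279), although 3450 (6.03%) had an unadjusted p under 0.05. Among the 76 called on average, 45 (59.2%) had an unadjusted interaction p under 0.05. Both tests use the same variance estimate, so the second share is not independent of the call. No response can therefore be called particular to 1 tissue here, and equality of the tissues was not shown either.

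The 10 called falls had a median average change of -0.65, against 0.95 for the 66 rises. PIN5, an auxin efflux carrier gene, read 8.55 and 8.94 in root controls, 6.82 and 6.62 in root nitrogen, 5.71 and 5.19 in shoot controls, and 5.22 and 5.35 in shoot nitrogen. The root groups were wholly apart and the shoot groups overlapped at a low signal, with changes of -2.03 ± 0.19 and -0.16 ± 0.19. Its average was -1.09 ± 0.14 (adjusted p = 0.0356). Of 58 genes of auxin transport and response PIN5 was the only one called, and the list median was -0.09. In this list 40 were below 0, against 8359 of all 17905 genes at 1 probe set each.

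LOC4349769 was called by both of its probe sets, at -0.82 ± 0.08 and -0.97 ± 0.09. Its brighter one read 13.55 and 13.67 in root controls, 12.34 and 12.19 in root nitrogen, 13.57 and 13.54 in shoot controls, and 13.34 and 13.19 in shoot nitrogen. The groups were apart in both tissues, by -1.35 in root and -0.30 in shoot. LOC4330256 and LOC4340638 fell evenly in the tissues, by 0.69 and 0.57 in root and by 0.74 and 0.56 in shoot, though neither tissue was called alone. LOC4348151 was called on average at -0.64 ± 0.08, with -1.03 in root and -0.24 in shoot, and a dim probe set of the same gene had 0.08. Among 3 lower probe sets with no gene in the annotation, the averages ran from -0.63 to -0.59. In the 8-array fit no fall was called in the shoot contrast or in both tissues, but without the second shoot control array the shoot contrast had 13 falls and 9 rises. At an unadjusted p under 0.05 in each tissue, 295 probe sets were lower in both, 470 higher in both and 132 opposite.

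**Figure D3:**
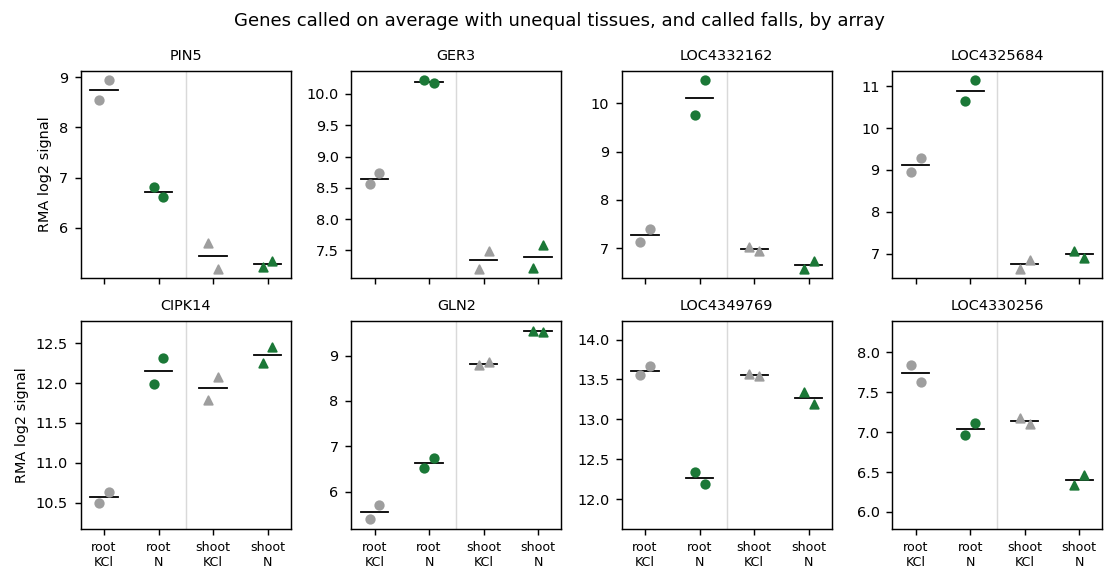
RMA log2 signal on each array (points) with the group mean (line) for 8 genes called on average, in root (circles) and shoot (triangles) with KCl in grey and nitrogen in green; each panel has its own axis range. For PIN5 and GER3 the root groups lie wholly apart while the shoot groups overlap. LOC4332162 rises in root, while its shoot change of -0.33 was not called. LOC4330256 falls by about as much in each tissue (-0.69 and -0.74).

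Genes of other nutrients and of stress, added salt being part of the treatment, were counted in the same way. None was called on average among 31 cytokinin genes (median 0.07), 20 phosphate starvation genes (0.04), 23 iron acquisition genes (-0.06), 6 sulfate assimilation genes (0.12) or 9 trehalose phosphate genes (0.03). The trehalose phosphate phosphatase TPP1 had 1.02 ± 0.16 (adjusted p = 0.0655), with a called rise of 2.27 in root (adjusted p = 0.0117) and -0.22 in shoot. Of 73 genes of osmotic and abscisic acid response none was called and the median was 0.06. In this list 54 were above 0, against 9546 of all 17905 genes at 1 probe set each. Nitrogen arrays lay wholly above the controls in both tissues for 15 and wholly below for 2. Over all 17905 genes these counts were 1459 and 907. The highest, the protein phosphatase PP2C30, had 0.62 ± 0.16 (adjusted p = 0.203). Among 43 heat shock genes (median 0.08) the highest was HSP23.2 at 1.22 ± 0.46 (adjusted p = 0.392). Its change was -0.25 in root and 2.69 in shoot, where the nitrogen arrays read 8.50 and 6.24. The 24 ribosomal protein genes held no call either, with 21 below 0 (8359 of all 17905 genes) and a median of -0.11. Over all tests, 6127 probe sets had an unadjusted p under 0.05 on average.

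**Figure D4:**
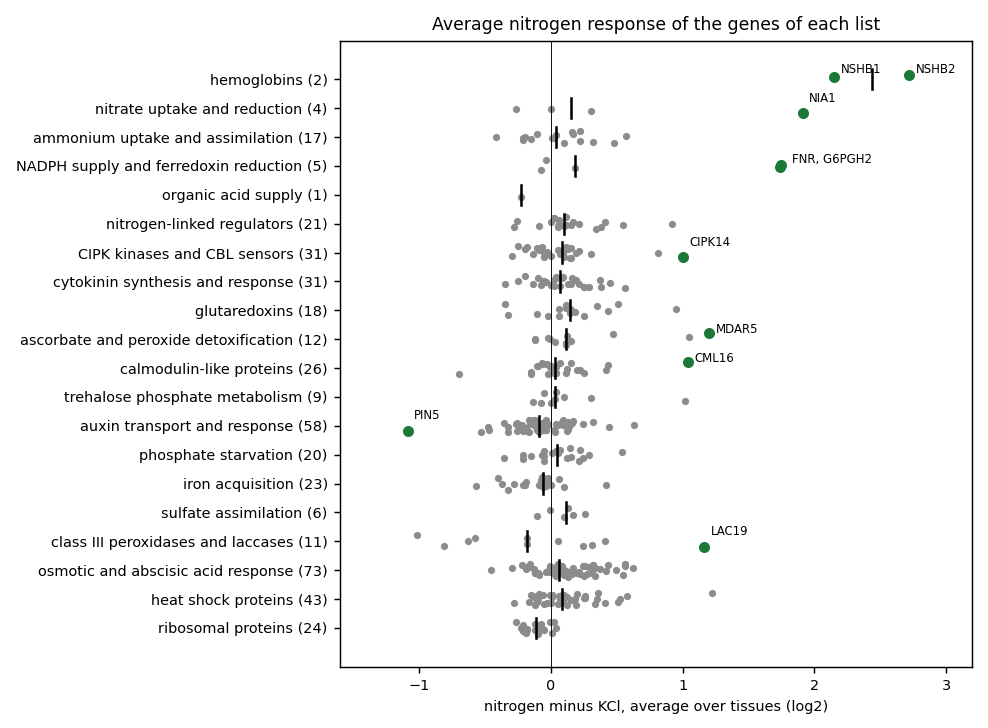
Average change after nitrogen (x axis, log2) of each gene (point, at its brightest probe set) in 20 lists, with the number of genes in parentheses and the list median as a black bar; green points were called. Most lists centre near 0 with at most 1 called gene, while both hemoglobins and 2 of 5 genes of NADPH supply lie at 1.74 or above.

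The number of calls moved with single arrays. Leaving out any 1 of the 8 arrays gave between 32 and 86 called probe sets on average. Without the second root nitrogen array there were 86 (49 higher and 37 lower), and without the second shoot control array 83 (52 and 31). Without any other array there were 32 to 44, with 0 to 4 lower. All 20 probe sets called in both tissues kept their average call in each of these 8 fits, as did 25 of the 66 higher ones. None of the 10 lower ones did, and 18 of the 76 were called in none of them. PIN5 was called in 1 of the 8 fits, GER3 in none, CIPK14 in 3 and CIPK10 in 1. LOC4332162 was called in 2, and the called GLN2 probe set in 5. The count called in root and in shoot separately fell to between 5 and 12 in these fits, each of which left 1 group with a single array that was assumed to vary like the others.

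**Figure D5:**
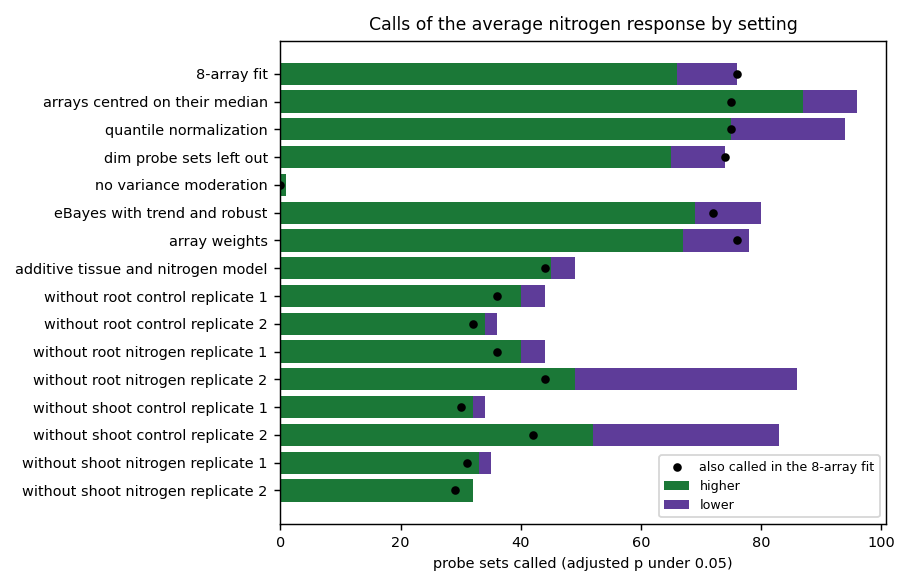
Number of probe sets called on average at an adjusted p under 0.05 (x axis), higher in green and lower in purple, in the fit of all 8 arrays and under other settings; black dots count those also called in the 8-array fit. Rises outnumber falls in each setting shown, and falls are most numerous there without the second root nitrogen or the second shoot control array. The fit with no variance moderation calls 1 probe set that is not among the 76. The replicate block is not shown and called 635 (330 higher and 305 lower).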

How the data were processed

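The files hold log2 expression values per probe set, which the authors deposited after RMA (robust multi-array average: background correction, normalization across arrays and summary of probes), per the submitters' processing notes. No RMA version is given in the sources used here. No detection call goes with the values, and the number of arrays limits the precision. They were used without further scaling. Array medians ran from 6.091 to 6.153, and the 2 arrays of a group correlated at 0.9925 to 0.9941 across probe sets.

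Of 57381 probe sets, 123 controls were left out. Per the platform annotation, 22436 of the rest had 1 gene, 95 had several and 34727 had none in that table. A RefSeq gene table (assembly ASM3414082v1) gave 2455 of 17905 genes a name. Sequences were not used here.

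The fit used limma 3.58.1 in R 4.3.3 with 4 group means, 4 residual degrees of freedom and moderated variances (8.23 degrees of freedom in total). It was also run on simulated data with independent noise on each array, which does not cover noise shared between arrays. Contrasts were the average nitrogen change, each tissue's change and their difference. Two-sided p-values were adjusted over all 57258 probe sets (Benjamini-Hochberg). The same-numbered arrays of the groups were not treated as pairs, since no label says that a number marks a shared batch. Their deviations did correlate, at 0.028 to 0.350 and all positive, and whether replicates share a component was not tested. With the number as a replicate block, 635 probe sets were called on average (330 higher and 305 lower) in place of 76. No batch is given.

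The genes and lists were chosen with earlier results of these data known. Named were the 25 largest average changes with the same sign in both tissues (by the brightest probe set of each gene) and up to 10 falls, every gene called in both tissues, list members called or largest, the 5 largest root-shoot differences and 4 unpaired probe sets. Lists were matched by symbol, symbols of other families being left out. The alternatives tried were another centring or normalization, a filter on dim probe sets, other variance models, array weights, an additive model, a replicate block, single arrays left out, each tissue alone, other thresholds and other probe sets.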

Additional observations from a re-analysis of the deposited data

Results flagged for a closer look

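Of all probe sets, 3111 (5.43%) had nitrogen arrays wholly above the controls in 1 tissue and wholly below them in the other, and 2 of the genes chosen for naming were among them. LOC4332162 was higher in root (7.13 and 7.41 in controls, 9.75 and 10.48 after nitrogen) and lower in shoot (7.03 and 6.95, then 6.58 and 6.73), with a root minus shoot difference of 3.18. NRT2.3, a nitrate transporter gene, was lower in root (-0.76) and higher in shoot (0.21), with a difference of -0.97. Its shoot controls read 4.95 and 4.95 and its shoot nitrogen arrays 4.95 and 5.37, so the shoot change lay in 1 array. By the interaction test in limma neither difference was called, with unadjusted p = 4.88e-06 and 0.0159 (no adjusted p in that test was below 0.279).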

How the results depend on the processing

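With 2 arrays a group, calls rest on moderated variances. Without moderation 1 probe set was called on average, 0 in root, 1 in shoot and 0 in both. The additive model, which puts the root-shoot difference into the error, called 49 on average. At thresholds of 0.01 and 0.10 there were 29 and 282 on average and 18 and 372 in root, and at 0.01 there were 7 in shoot and 5 in both. Each tissue's arrays alone gave 20 in root and 3 in shoot. Leaving out 1 array gave 32 to 86 on average, 18 to 193 in root, 5 to 22 in shoot (9 higher and 13 lower at 22, without the second shoot control array), 0 to 1 for the difference of the tissues and 5 to 12 in both. The number as a replicate block gave 635 on average (330 higher and 305 lower), 402 in root and 52 in shoot (21 lower), with all 76 average calls among the 635. As the numbers were not taken to pair the arrays, this is a description. Other centring (96), normalization (94), a dim filter (74), trend with robust variances (80) and array weights (78) stayed within 1.5 times of 76. Of 39 named called probe sets, 23 kept their call in each setting but the unmoderated fit, other probe sets of the same gene not counted. Signs turned with another probe set for NIA1 (-0.05) and LOC4348151 (0.08), and with 1 array left out for genes that were not called: TPP4 (-0.03 to 0.24), NAR2.2 (-0.07 to 0.07), LFNR1 (-0.47 to 0.39), G6PGH1 (-0.21 to 0.04) and NAS1 (-1.35 to 0.20). The causes were not tested.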
